A study of Mus musculus with 16 samples.

Results

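The genes described here are 8 markers of microglia, the resident macrophages of the brain, namely P2ry12, Cx3cr1, Csf1r, Tyrobp, Aif1, C1qa, C1qb and C1qc. They were chosen by name, and every probe annotated to them was taken. All 8 were found among the 10620 named genes of the globally normalised array values, with 11 of the 19893 probes. Microglia arise from yolk sac progenitors, depend on CSF1 receptor signalling for their survival, and survey the tissue with motile processes that are steered by purines through P2RY12 and by neuronal fractalkine through CX3CR1. They are the main source of C1q in the brain, a complement protein that tags synapses and debris, and when they are activated they typically lose P2ry12 and gain chemokines and other inflammatory genes. In the suprachiasmatic nucleus (SCN), the hypothalamic clock whose cells are synchronised by vasoactive intestinal peptide (VIP), they sit among neurons and astrocytes.

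RNA from organotypic SCN slices of C57BL/6J mouse pups (age P8-P11) was hybridised to 16 Illumina mouse arrays. Circadian time (CT) was set from the PER2::LUC reporter, a luciferase fusion to the clock protein PER2 whose peak defines CT12. All slices had been in culture for 7 days before they were moved to recording medium with luciferin. CT10 slices (n = 4) were untreated and collected at CT10. CT12 Veh slices (n = 4) received vehicle (air medium) at CT10 and were collected 2 h later, CT12 VIP slices (n = 4) received VIP at CT10 and were also collected 2 h later, and CT16 VIP slices (n = 4) were collected 6 h after VIP. The labels give VIP as 1 µM, which differs from the dose in the study's methods, and the series text gives another collection time for the 6 h group than the CT16 of its labels, which is used here. No vehicle slices of CT16 were analysed here, and circadian time therefore cannot be told apart from time after VIP wherever CT16 VIP slices are compared. The labels do not say whether slices came from separate animals, so p-values measure only the spread between slices. An organotypic slice is a cut and healed tissue, and its microglia have been through that injury. The arrays measured bulk RNA, in which fewer microglia and less RNA per microglial cell cannot be told apart.

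Between 8019 and 16923 probes were detected per array (detection p of 0.01 or less). The arrays below 10000 were slice 1 of CT12 Veh, slice 1 of CT12 VIP and slices 3 and 4 of CT16 VIP, and results that rest on these arrays are also given without them. No pair of arrays held identical values. The tissue label fitted the marker lists: 9 of 12 neuronal, 7 of 8 astrocyte and 5 of 6 measured oligodendrocyte genes were detected on every array. Of the microglia markers, 3 genes, Tyrobp, Aif1 and C1qb, were detected on all 16 arrays.

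The letters upstream of some of these genes are shown first. A RefSeq table of mouse promoters (build GRCm38.p6, 250 bases before to 50 after each gene start) held windows for 5 of the 8 genes. In this table the letters GAGGAA, the core bound by the macrophage factor PU.1, were searched on both strands (TTCCTC is the other strand), and any match is in capitals. The windows shown are those of the 2 genes that passed a test, P2ry12 and Aif1, and of C1qb and C1qc, which are neighbours on chromosome 4. The windows lie at chr3:59262936-59263235 for P2ry12, chr17:35176003-35176302 for Aif1, chr4:136886151-136886450 for C1qb and chr4:136892865-136893164 for C1qc, all on the minus strand, and are written 5′ to 3′ along the gene.
P2ry12: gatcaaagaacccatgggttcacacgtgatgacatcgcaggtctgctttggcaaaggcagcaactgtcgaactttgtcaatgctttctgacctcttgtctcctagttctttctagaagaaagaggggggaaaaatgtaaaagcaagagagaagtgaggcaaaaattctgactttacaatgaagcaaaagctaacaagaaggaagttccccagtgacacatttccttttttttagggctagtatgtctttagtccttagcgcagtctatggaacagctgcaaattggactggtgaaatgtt
Aif1: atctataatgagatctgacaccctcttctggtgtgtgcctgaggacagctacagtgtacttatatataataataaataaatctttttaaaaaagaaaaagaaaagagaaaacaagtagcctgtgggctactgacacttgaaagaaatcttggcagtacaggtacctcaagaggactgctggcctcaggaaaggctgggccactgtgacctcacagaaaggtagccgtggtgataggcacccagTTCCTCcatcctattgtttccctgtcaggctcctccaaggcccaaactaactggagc
C1qb: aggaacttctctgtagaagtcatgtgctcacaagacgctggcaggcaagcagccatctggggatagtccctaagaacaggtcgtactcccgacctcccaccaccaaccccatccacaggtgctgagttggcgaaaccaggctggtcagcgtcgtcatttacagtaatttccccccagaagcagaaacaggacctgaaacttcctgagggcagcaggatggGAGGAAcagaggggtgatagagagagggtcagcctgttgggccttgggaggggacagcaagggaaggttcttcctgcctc
C1qc: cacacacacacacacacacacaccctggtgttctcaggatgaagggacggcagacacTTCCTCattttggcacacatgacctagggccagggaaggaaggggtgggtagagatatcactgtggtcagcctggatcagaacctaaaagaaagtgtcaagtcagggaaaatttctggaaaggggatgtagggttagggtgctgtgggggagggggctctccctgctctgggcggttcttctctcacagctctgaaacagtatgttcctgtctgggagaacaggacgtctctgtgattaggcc
The capitals begin 7 bases before the annotated start in Aif1, 30 bases before it in C1qb and 193 bases before it in C1qc. The windows of P2ry12 and Cx3cr1 hold no match. Such letters are common: 28.3% of the 32851 windows in the table hold them, as do 3 of the 5 windows of these genes. The AP-1 letters TGACTCA and TGAGTCA, which are each other's reverse complement, are in 5.2% of all windows and in none of these 5. A match is a description of the letters and not a binding site.

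P2ry12, the ADP receptor by which resting microglia sense injured or active cells, had the largest spread of group means among the 8 genes on the globally normalised log2 scale, 0.41 from the highest to the lowest group. Its brighter probe read 7.57, 7.54, 8.10 and 7.80 in CT10 slices 1, 3, 4 and 5, and 7.88, 7.76, 7.86 and 7.88 in CT12 Veh slices 1 to 4. In CT12 VIP slices 1 to 4 it read 7.52, 7.55, 7.77 and 7.77, and in CT16 VIP slices 1 to 4 it read 7.71, 7.49, 7.35 and 7.18. Every CT16 VIP slice lay below every CT12 Veh slice, while the CT10 slices spread across both. The probe was detected on all 4 CT12 Veh arrays, on 2 of 4 in each of CT10 and CT12 VIP, and on 1 of 4 at CT16, so much of this range lies near background. The means were 7.84 ± 0.059 (SD, n = 4) in CT12 Veh, 7.75 ± 0.26 in CT10, 7.65 ± 0.14 in CT12 VIP and 7.43 ± 0.22 in CT16 VIP, and the slices of neighbouring groups in this order overlapped. A dimmer second probe of P2ry12 was detected on 1 of the 16 arrays, CT16 VIP 1, and its group means lay between 7.50 and 7.57.

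Aif1, which encodes the calcium-binding protein IBA1 used to stain microglia, had 3 probes. The brightest was detected on all 16 arrays and read 8.67, 8.66, 8.96 and 8.89 in CT10, and 8.86, 8.84, 8.76 and 8.92 in CT12 Veh. It read 8.48, 8.56, 8.76 and 8.70 in CT12 VIP and 8.78, 8.60, 8.37 and 8.22 in CT16 VIP. The lowest slices of both VIP groups were below all slices of the other groups, but the CT16 VIP slice 1 lay within the vehicle range. Its group means, from high to low, were 8.85 ± 0.065 (SD, n = 4) for CT12 Veh, 8.80 ± 0.15 for CT10, 8.63 ± 0.13 for CT12 VIP and 8.49 ± 0.24 for CT16 VIP. The second probe had the same order but for the first 2 groups, from 8.25 ± 0.13 at CT10 and 8.19 ± 0.036 with vehicle to 8.09 ± 0.083 at 2 h and 7.90 ± 0.15 at 6 h after VIP. The third followed the second in order, with means from 7.89 ± 0.095 in CT10 to 7.64 ± 0.14 in CT16 VIP.

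**Figure D1:**
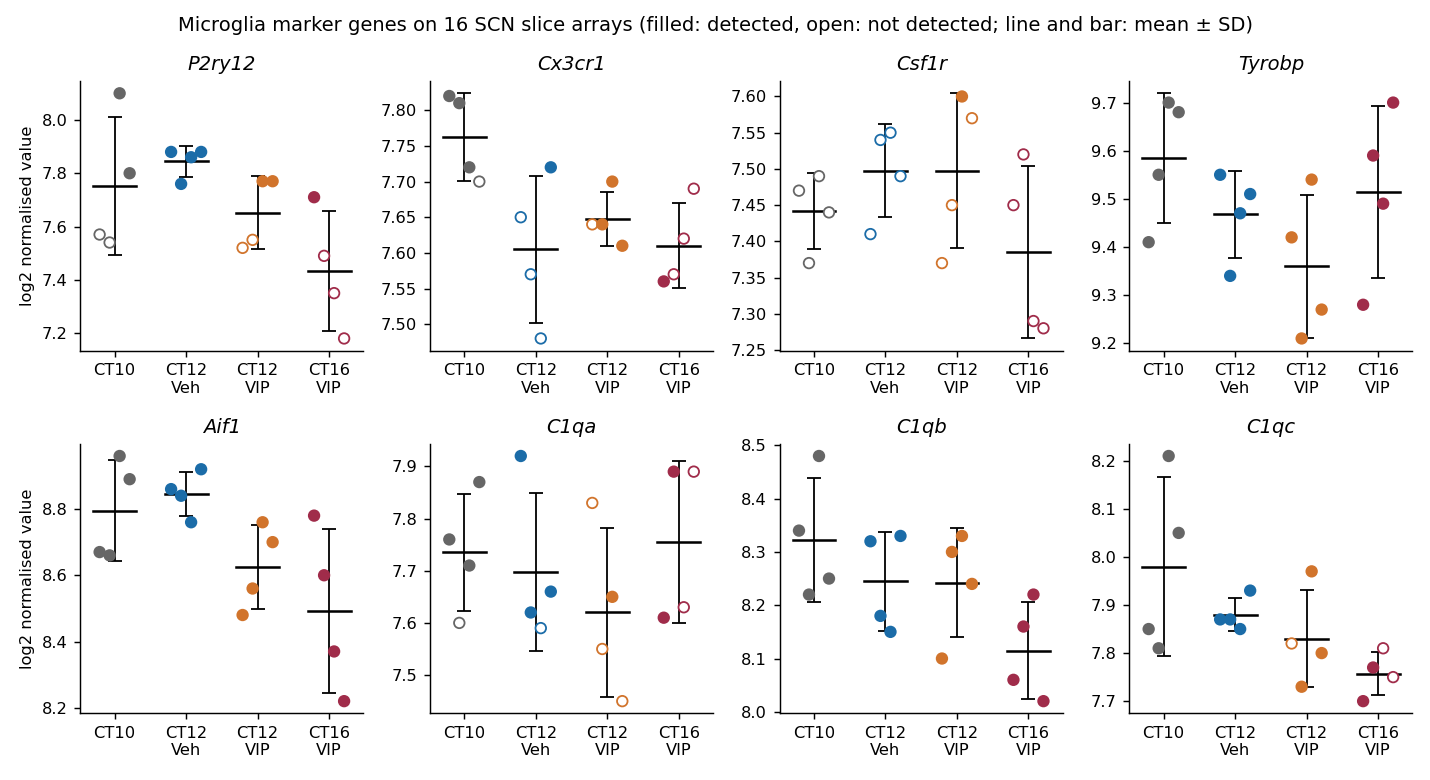
Globally normalised log2 values (y axis) of the brightest probe of each of the 8 genes on the 16 arrays, by group (x axis). Filled points are detected (detection p of 0.01 or less) and open points are not, lines and bars are the mean ± SD of 4 slices. P2ry12 ran from 7.18 to 8.10, with all 4 CT16 VIP slices below the 4 CT12 Veh slices, whereas the slices of Tyrobp and C1qa overlapped between all groups.

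Like much of the P2ry12 range, the values of the other surface receptors were close to background. Cx3cr1, the receptor for fractalkine, was detected on 8 of 16 arrays and read 7.82, 7.81, 7.72 and 7.70 in CT10, against 7.65, 7.57, 7.48 and 7.72 in CT12 Veh, 7.64, 7.64, 7.70 and 7.61 in CT12 VIP and 7.56, 7.57, 7.62 and 7.69 in CT16 VIP. The 4 CT10 slices were the highest but for CT12 Veh slice 4, which lay within their range, and CT12 VIP slice 3, which equalled the lowest of them to the digits shown. The CT10 mean was 7.76 ± 0.060 and those of the other groups were 7.60 to 7.65. Csf1r, the receptor for the survival factors CSF1 and IL-34, was detected on 1 array only, CT12 VIP 3, so its values between 7.28 and 7.60 are mostly background signal, as is whatever is computed from them below, and no fold is given for it.

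Tyrobp encodes DAP12, the adaptor that passes signals from TREM2 and related receptors. It was detected on all arrays and read 9.41, 9.55, 9.70 and 9.68 in CT10, 9.55, 9.34, 9.47 and 9.51 in CT12 Veh, 9.42, 9.21, 9.54 and 9.27 in CT12 VIP, and 9.28, 9.59, 9.49 and 9.70 in CT16 VIP. Its 4 groups overlapped throughout, and the order of their means (CT10, CT16 VIP, CT12 Veh, CT12 VIP) was not that of P2ry12 or Aif1.

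The C1q chains, which assemble together into C1q, did not share an order of groups. C1qb was detected on all arrays, from 8.32 ± 0.11 (SD, n = 4) at CT10 through 8.25 ± 0.091 with vehicle and 8.24 ± 0.10 at 2 h of VIP to 8.11 ± 0.091 at 6 h. C1qc had the same order, from 7.98 ± 0.18 in CT10 through 7.88 ± 0.033 and 7.83 ± 0.099 to 7.76 ± 0.045 in CT16 VIP, and was detected on 13 arrays. For both, the lowest CT10 slice read no lower than the highest CT16 VIP slice (8.22 and 8.22 for C1qb, 7.81 and 7.81 for C1qc, equal to the digits shown), and slices of neighbouring groups overlapped. C1qa, detected on 9 arrays, was highest in CT16 VIP (7.75 ± 0.16) and lowest in CT12 VIP (7.62 ± 0.16), and the ranges of all groups overlapped. Averaged over the brightest probe of each of the 8 genes, the CT10 slices had 8.17 ± 0.10, the vehicle slices 8.14 ± 0.053, and the slices with VIP 8.06 ± 0.073 at 2 h and 8.01 ± 0.05 at 6 h (SD, n = 4), given as a description.

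Across the 4 groups, a moderated F test in limma on the global values called 1 of the 11 probes, against a background of 6.29% of all 19893 probes. That probe was the second of Aif1 (adjusted p = 0.0223). The brightest Aif1 probe (adjusted p = 0.0865) and the brighter P2ry12 probe (adjusted p = 0.105) did not pass, nor did the other 8 probes (adjusted p up to 0.862). The call rested on the late slices: with CT16 VIP 3 or CT16 VIP 4 left out no probe passed, nor without the 4 arrays with few detected probes, and with CT16 VIP 1 left out 3 passed, namely both of these Aif1 probes and P2ry12.

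The first comparison asked what 2 h of VIP did at a matched circadian time. None of the 10 probes tested differed between CT12 VIP and CT12 Veh (limma, adjusted p under 0.05), in a comparison in which 4.19% of all 17605 probes were called. Of the 10, 2 were lower at an unadjusted p under 0.05, against 7.75% of all probes, and 9 lay below 0, against 53.7%. Aif1 came closest. On the values that the authors normalised for this pair, its brightest probe read 8.83, 8.81, 8.73 and 8.89 in CT12 Veh and 8.45, 8.53, 8.73 and 8.67 in CT12 VIP, so that the groups touched at 8.73 without overlap, as they did for no other member (4.73% of all probes lay lower without overlap). The difference was -0.22 (SE 0.071, adjusted p = 0.0937), and -0.10 and -0.08 for the other Aif1 probes. With a covariate for how many probes each array detected it passed, at -0.25 (adjusted p = 0.0307), and under no other adjusted alternative. P2ry12 read 7.83, 7.69, 7.80 and 7.82 in CT12 Veh and 7.46, 7.47, 7.71 and 7.71 in CT12 VIP, a difference of -0.20 (SE 0.073, adjusted p = 0.158). The first 2 slices of CT12 VIP were thus low, and the others lay beside the vehicle slices. Of Cx3cr1, Tyrobp and the 3 C1q chains, the differences ran from -0.11 (Tyrobp) to 0.04 (Cx3cr1). The median of the 10 probes was -0.083, beside -0.00865 over all probes. Markers of ependymal cells moved in the same comparison: 3 of 7 fell, Dynlrb2 by 0.47 (SE 0.075, adjusted p = 0.000465) the most, and their part in the values of Aif1 and P2ry12 was not tested. None of this list lay below 0 in CT12 Veh vs. CT10, as given below.

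The second comparison followed the slices from 2 h to 6 h after VIP. None of the 11 probes differed between CT16 VIP and CT12 VIP (1.79% of all 19110 probes were called), and 1 was lower at an unadjusted p under 0.05, beside 6.72% of all probes. That was the second Aif1 probe, at -0.19 (SE 0.081, adjusted p = 0.356). P2ry12 differed by -0.22 (SE 0.10, adjusted p = 0.415), and Tyrobp and C1qa had values of 0.16 (SE 0.097, adjusted p = 0.543) and 0.14 (SE 0.095, adjusted p = 0.605) in the other direction. The 11 probes had a median of -0.0927, beside 0.00159 over all probes, and 8 of the 11 lay below 0, beside 49.3%. No member had groups without overlap (4.29% of all probes lay lower in this way).

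**Figure D2:**
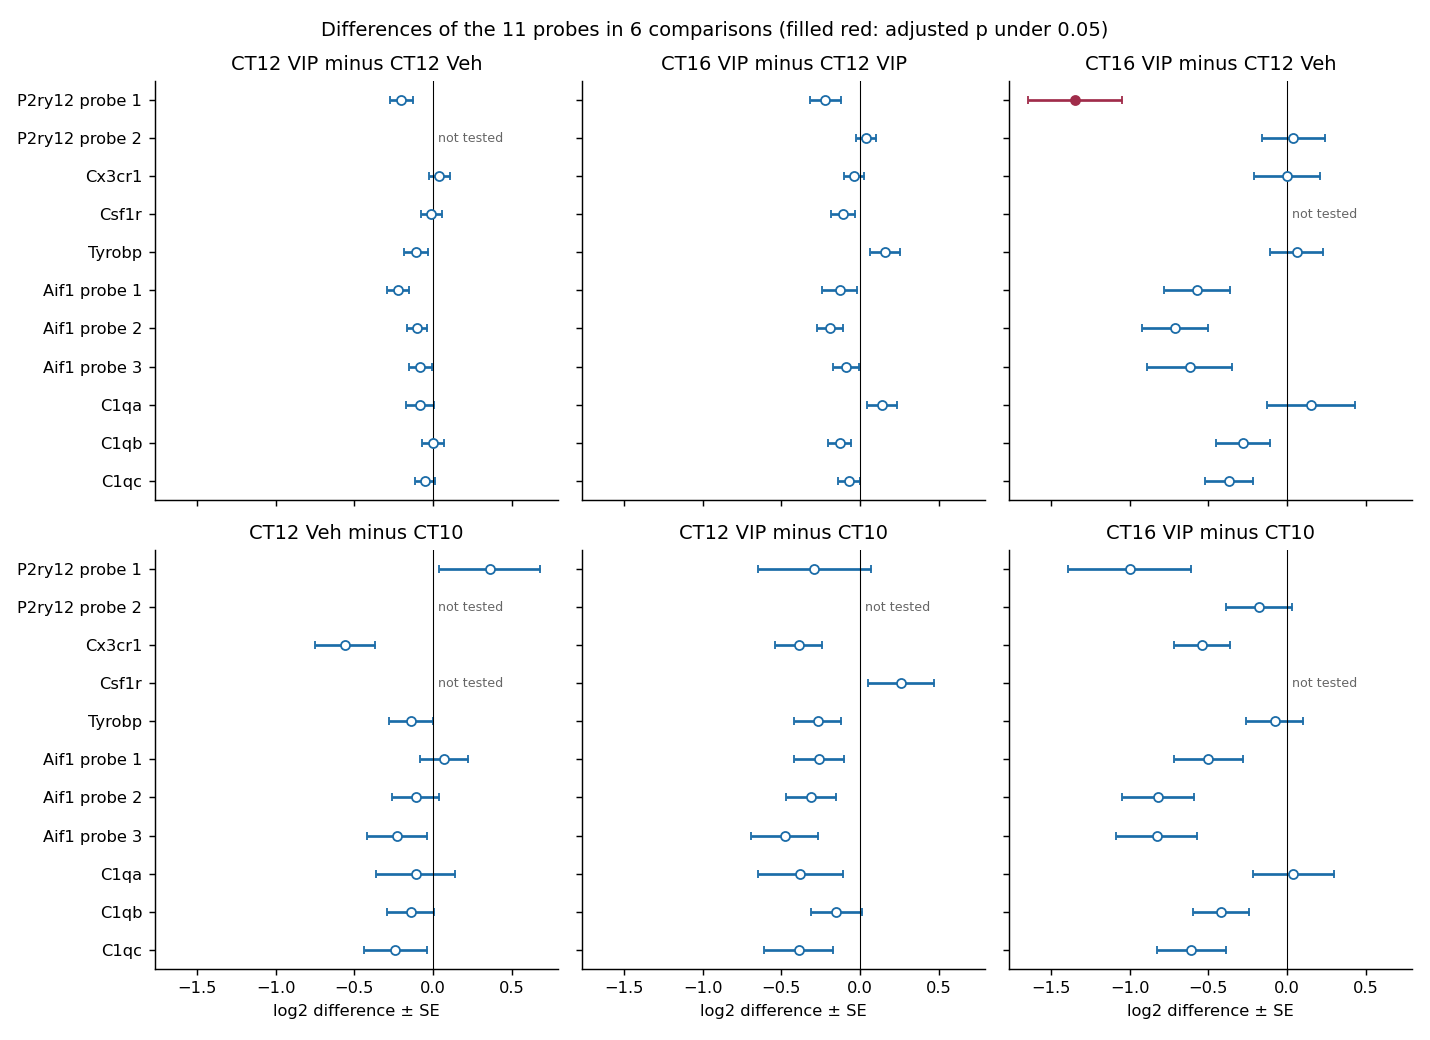
Log2 difference ± SE (x axis) of each of the 11 probes (y axis) in the 6 comparisons of groups of 4 slices. The first 2 panels use variance-stabilised values, which compress differences near background, and the other 4 use neqc values, so sizes are not comparable between these sets. The filled point, P2ry12 at -1.35 in CT16 VIP minus CT12 Veh, was the only one past the threshold.

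P2ry12 passed the test in 1 comparison, CT16 VIP vs. CT12 Veh, where it was the only one of 10 probes tested that did. In that comparison 2.21% of all 18724 probes were called, and 0.721% were called lower. These values were background-corrected and normalised for the pair with neqc, on which low signals are less compressed. P2ry12 read 6.78, 6.41, 6.71 and 6.76 in CT12 Veh, and 6.26, 5.41, 4.93 and 4.65 in CT16 VIP. All late slices lay below all vehicle slices, and they spread over a wider range than the difference between the group means. The difference was -1.35 (SE 0.30, adjusted p = 0.0377), and -0.41 on the global values. The probe was detected on 4 of 4 CT12 Veh arrays and on 1 of 4 CT16 VIP arrays, slice 1, so the size of the difference rests largely on background signal in the late slices. CT16 VIP slices 3 and 4, the lowest, were also those with few detected probes. Without the 3 such arrays of this pair the difference was -0.87 (adjusted p = 0.29), and with detected probes as a covariate it was -1.27 (adjusted p = 0.00914). With each array left out in turn it ran from -1.61 to -1.17 and passed only without CT16 VIP 1 (adjusted p = 0.00302 to 0.115 over the 8 fits). Without that slice no CT16 VIP array detected the probe. It then entered the fit only through CT12 Veh, where it is high, so that pass is not counted as support. The same holds for the filter that asks for detection on every array of a group (limma, adjusted p = 0.0142). The second probe of P2ry12, not detected on any CT12 Veh array, did not pass (adjusted p = 0.968), and the mean of both probes gave -0.66 (adjusted p = 0.163).

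The Aif1 probes lay in the same direction without passing. The brightest read 8.61, 8.59, 8.47 and 8.70 in CT12 Veh and 8.49, 8.22, 7.84 and 7.56 in CT16 VIP, and the second read 7.49, 7.40, 7.58 and 7.48 against 7.05, 7.20, 6.64 and 6.24. The first pair of groups overlapped through CT16 VIP 1 and the second did not overlap. The difference was -0.57 (SE 0.21, adjusted p = 0.23) for the brightest probe and -0.71 (SE 0.21, adjusted p = 0.135) for the second. The third probe had a difference of -0.62 (SE 0.27, adjusted p = 0.316). In a fit of all 16 arrays on the global values, the first 2 passed as well (-0.35, adjusted p = 0.0416, and -0.29, adjusted p = 0.0282). On the neqc values, the 3 Aif1 differences were smaller without the arrays with few detected probes. They were then -0.23, -0.37 and -0.35 (limma, adjusted p = 0.689, 0.489 and 0.596). Of the C1q chains, C1qc differed by -0.37 (SE 0.15, adjusted p = 0.297). C1qb had -0.28 (SE 0.17, adjusted p = 0.533) and C1qa, on the other side of 0, 0.15 (SE 0.28, adjusted p = 0.878). Cx3cr1 had a difference of 0.00 (SE 0.21) and Tyrobp one of 0.06 (SE 0.17). Groups did not overlap for 3 of the 10 probes (P2ry12, the second Aif1 probe and C1qc, all lower), beside 5.08% of all probes, and 5 had an unadjusted p under 0.05, all lower, beside 7.95%. These 5 were the brighter P2ry12 probe, the 3 probes of Aif1 and C1qc, so they are not 5 separate genes. Counted by the brightest probe, it was 3 of 7 genes. Without the arrays with few detected probes only P2ry12 stayed at that level (limma, unadjusted p = 0.0212). Of the 10, 7 lay below 0, beside 53.7%, and the median was -0.325, beside -0.024 over all probes.

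Markers of ependymal cells also lay lower in this comparison. All 7 of that list lay below 0, with a median of -0.832. The 1 of them that passed, Tmem212, fell by 1.08 (SE 0.22, adjusted p = 0.0286). It was detected on 4 of 4 CT12 Veh arrays and on 1 of 4 CT16 VIP arrays, so the size of its difference also rests largely on background signal. In CT12 Veh vs. CT10 none of the 7 lay below 0 (median 0.378), and 2 had an unadjusted p under 0.05, beside 6.71% of all probes. The vehicle slices were thus themselves high in this list. Of the member probes, 7 of 9 lay below 0 in CT12 Veh vs. CT10. The brighter P2ry12 probe (0.36) and the brightest Aif1 probe (0.07) lay above 0, as this list did, without passing. The mean level of the list on the global values was 7.93 to 8.18 in CT10, 8.08 to 8.34 in CT12 Veh and 7.79 to 8.06 in CT16 VIP, and 3 of its genes were detected on 5 or fewer arrays. Their part in the P2ry12 result was not tested. Of neurons, 1 of 12 genes rose (Nefm, by 1.47) and none fell, and none of 8 astrocyte or 6 oligodendrocyte genes passed. Of the astrocyte genes, 7 of 8 lay below 0, with a median of -0.172 and 2 at an unadjusted p under 0.05, and their part in the P2ry12 result was not tested either. The 8 markers of monocytes and neutrophils were not analysed here.

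**Figure D3:**
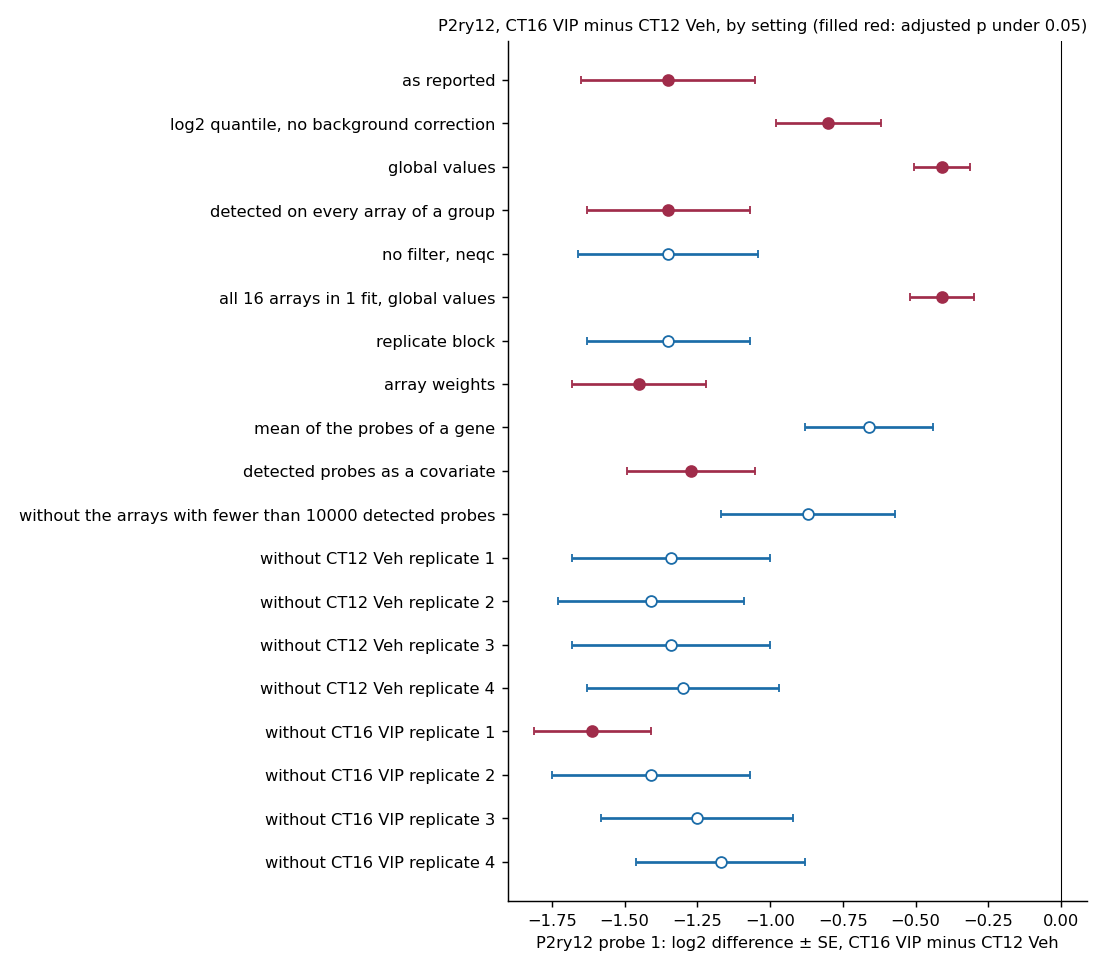
Log2 difference ± SE (x axis) of P2ry12 between CT16 VIP and CT12 Veh under each processing choice (y axis), with filled red points past an adjusted p of 0.05. The brighter probe is shown, except that averaged probes are the mean of both. Global values and log2 values without background correction are on other scales than neqc values, so sizes are not comparable between them. All values lie below 0, from -1.61 to -0.41, and 7 of the 18 alternatives keep the call.

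The untreated CT10 slices gave a further reference, at another circadian time. None of the 9 probes tested differed between CT12 Veh and CT10 in limma, a comparison with 0% of all 16847 probes called and 1130 (6.71%) at an unadjusted p under 0.05. The 1 of the 9 at that level was Cx3cr1 (3.34% of all probes were lower at it), with 6.69, 6.64, 6.36 and 6.31 in CT10 against 6.08, 5.86, 5.47 and 6.35 in CT12 Veh, a difference of -0.56 (SE 0.19, adjusted p = 0.71). Vehicle slices 1 to 3 were lower than all CT10 slices and vehicle slice 4 was within their range. P2ry12 differed by 0.36 (SE 0.32, adjusted p = 0.871), its CT10 slices being 5.85, 5.69, 7.38 and 6.63 and its vehicle slices 6.86, 6.49, 6.79 and 6.84. Of the 9 probes 7 lay below 0, beside 49.9% of all probes, and none had groups without overlap (2.02% lay lower in this way).

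Against CT10, the VIP slices were mostly lower without a call. None of 10 probes passed for CT12 VIP vs. CT10 (2.57% of all probes called), with 9 of 10 below 0, beside 53.5% of all probes, and 2 were lower at an unadjusted p under 0.05, beside 5.83%. The lowest adjusted p was that of Cx3cr1, with 6.72, 6.67, 6.40 and 6.35 in CT10 and 6.07, 6.13, 6.34 and 6.03 in CT12 VIP (-0.39, SE 0.15, adjusted p = 0.243). It was the 1 member whose groups did not overlap here, beside 3.53% of all probes lower in this way. None of 10 passed for CT16 VIP vs. CT10 (2.37% of all probes called). There, 7 of 10 had an unadjusted p under 0.05, all lower, beside 7.86% of all probes, and 9 of 10 lay below 0, beside 53.1%. The 7 include all 3 probes of Aif1, and counted by the brightest probe it was 5 of 7 genes. Groups did not overlap for 4, Cx3cr1, the second Aif1 probe, C1qb and C1qc, all lower, beside 4.86%. The second Aif1 probe read 7.72, 7.55, 7.98 and 7.39 in CT10 and 7.11, 7.27, 6.70 and 6.30 in CT16 VIP. Its difference was -0.82 (SE 0.23, adjusted p = 0.10), that of P2ry12 was -1.0 (SE 0.39, adjusted p = 0.253), that of C1qc -0.61 (SE 0.22, adjusted p = 0.225) and that of Cx3cr1 -0.54 (SE 0.18, adjusted p = 0.174). Tyrobp and C1qa stayed near 0, at -0.08 (SE 0.18) and 0.04 (SE 0.26). Ependymal and astrocyte genes lay mostly on the same side, but not every list did. Of other myeloid genes, 6 of 15 lay below 0 in CT16 VIP vs. CT10 (median 0.0428) and 6 of 11 in CT12 VIP vs. CT10 (median -0.0111). Of neuronal genes, 8 of 12 (median -0.155) and 6 of 12 (median 0.0243) did. In CT16 VIP vs. CT10, 7 of 7 ependymal genes (median -0.376) and 8 of 8 astrocyte genes (median -0.151) were below 0, and in CT12 VIP vs. CT10, 6 of 7 ependymal genes (median -0.342) and 6 of 8 astrocyte genes (median -0.145) were. Their part in the values of the members was not tested. These comparisons share the CT16 VIP or CT10 arrays with others above and are not independent of them.

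Values of some members correlated over the arrays. Over the 16 arrays, 9 of the 28 pairs of genes had a Pearson correlation past a Benjamini-Hochberg adjusted permutation p of 0.05, all positive, and 6 pairs did by rank. The share of all gene pairs that would pass on these arrays was not computed. These counts are therefore a description and not a trait of these genes. The closest pair was P2ry12 and Aif1, with r = 0.94 and rho = 0.92 (permutation p = 1e-05 for each, the smallest that 100000 resamples can give, adjusted p = 0.00028). It remained at 0.89 without the 2 arrays farthest in P2ry12, at 0.91 after each group was centred on its own mean and at 0.88 over the 12 arrays with at least 10000 detected probes. The pair therefore varied together among slices of the same group as well as between groups. C1qb and C1qc had r = 0.70 and rho = 0.66 (permutation p = 0.00211 and 0.00678, adjusted p = 0.0295 and 0.0316), r = 0.48 without the 2 farthest arrays and 0.52 within groups (adjusted p = 0.146). Tyrobp and C1qa had r = 0.66 and rho = 0.67 (permutation p = 0.00592 and 0.00576, adjusted p = 0.0327 and 0.0316), with 0.51 without 2 arrays and 0.61 within groups (adjusted p = 0.0603). P2ry12 and Aif1 also passed with C1qc (r = 0.69 and 0.63, adjusted permutation p = 0.0304 and 0.0357). With C1qb they had r = 0.62 and 0.59 (adjusted permutation p = 0.0357 and 0.0495). By rank the pairs with C1qc passed (rho = 0.70 for each) and those with C1qb did not. Within groups none of these passed, with r from 0.39 to 0.62. Tyrobp with Aif1 and with P2ry12, both at r = 0.02, and C1qa with C1qb, at r = -0.13, did not pass. Csf1r, detected on 1 of the 16 arrays, correlated in its mostly background signal with P2ry12 (r = 0.65) and Aif1 (r = 0.64). These fell to 0.30 and 0.23 without the 2 farthest arrays, while after centring the same step left 0.57 and 0.67. After centring, 2 of 28 pairs passed by Pearson r, P2ry12 with Aif1 and Csf1r with Aif1. By rank 5 pairs passed, these 2 and P2ry12 with Csf1r among them. The others were Tyrobp with C1qa (rho = 0.66, adjusted permutation p = 0.034) and Tyrobp with C1qc (rho = 0.75, adjusted permutation p = 0.0164).

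**Figure D4:**
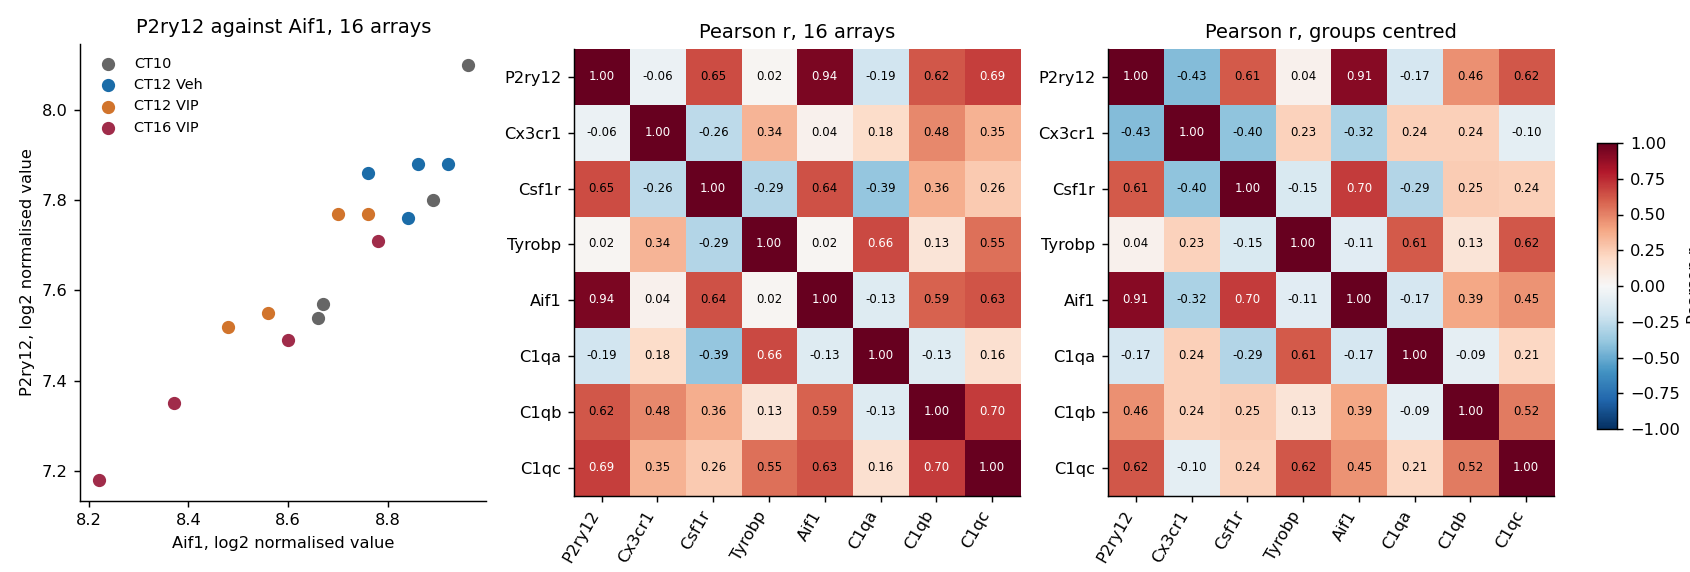
Left, log2 normalised values of P2ry12 (y axis) against Aif1 (x axis) on the 16 arrays, coloured by group. Middle and right, Pearson r of each pair of the 8 genes over the 16 arrays and after each group was centred on its mean; P2ry12 with Aif1 is at 0.94 and 0.91, and C1qa with C1qb at -0.13 and -0.09.

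Levels also moved with the number of probes detected on an array, in both directions. Of the 8 genes, 3 correlated with it past an adjusted permutation p of 0.05: Csf1r, in a signal above background on 1 array, positively, with r = 0.74 and rho = 0.71 (permutation p = 0.00123 and 0.00254, adjusted p = 0.00984 and 0.0203), and Tyrobp and C1qa negatively. Tyrobp had r = -0.58 and rho = -0.61 (permutation p = 0.018 and 0.0139, adjusted p = 0.0481 and 0.0557), and C1qa had r = -0.59 and rho = -0.54 (permutation p = 0.0172 and 0.0318, adjusted p = 0.0481 and 0.0847). Within groups the 3 values of r were 0.76, -0.59 and -0.56, and without the 2 farthest arrays 0.80, -0.40 and -0.52. For P2ry12 (r = 0.40, rho = 0.27, adjusted permutation p = 0.194 and 0.418) and Aif1 (r = 0.47, rho = 0.31, adjusted permutation p = 0.132 and 0.418) it did not pass, with 0.49 and 0.65 within groups. Whether these relations differ between genes was not tested. The share of all genes that would pass was not computed, so 3 of 8 is a description and not a trait of these genes.

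**Figure D5:**
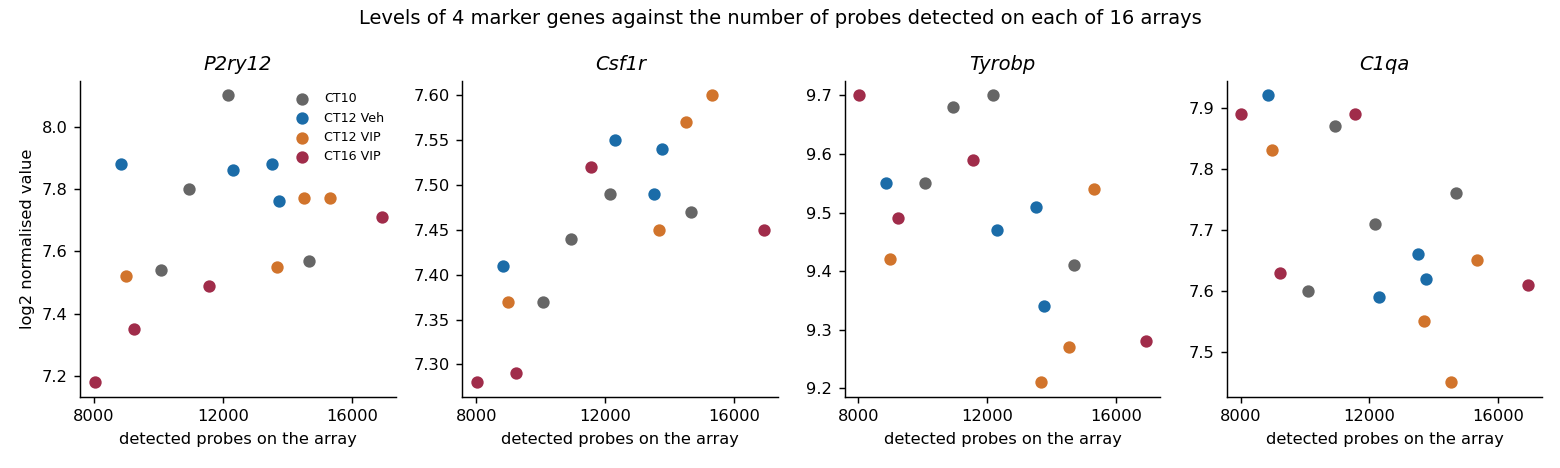
Log2 normalised value (y axis) of 4 genes against the number of probes detected on each array (x axis), coloured by group. The signal of Csf1r, detected on 1 of 16 arrays, lay higher and the values of Tyrobp and C1qa lower on arrays with more detected probes (r = 0.74, -0.58 and -0.59 over 16 arrays), and the lowest P2ry12 values, 7.35 and 7.18, are the CT16 VIP arrays with 9226 and 8019 detected probes.

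Other genes of microglia were read from lists. Of 17 further homeostatic genes, 9 were measured, and 1 passed in any comparison, beside 0.832% of all probes called higher in the comparison concerned. This was P2ry6, the UDP receptor linked to phagocytosis, which rose by 0.39 (SE 0.083, adjusted p = 0.0269) from CT12 VIP to CT16 VIP and was detected on all 8 arrays. The others, Tmem119, P2ry13 and Gpr34 among them, were not analysed here. Of 15 measured pan-myeloid genes, 1 passed: Laptm5, a lysosomal membrane protein of blood cells, fell by 0.29 (SE 0.078, adjusted p = 0.0379) in CT12 VIP vs. CT12 Veh, where 1.47% of all probes were called lower. None of 5 measured ligands and partners of the members, and none of 7 measured complement genes outside C1q, passed in any comparison.

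Of 24 genes induced in activated microglia, 15 were measured, and 2 of 14 tested rose in CT12 VIP vs. CT12 Veh: the chemokines Ccl4, by 0.69 (SE 0.15, adjusted p = 0.0101), and Ccl2, by 0.51 (SE 0.12, adjusted p = 0.016), where 2.73% of all probes were called higher. Between 2 h and 6 h Ccl4 fell by 0.81 (SE 0.11, adjusted p = 0.000717), while Ccl2 rose by 0.66 (SE 0.087, adjusted p = 0.000837) and Lgals3, the lectin galectin-3, by 0.34 (SE 0.076, adjusted p = 0.035), with 0.832% of all probes called higher. In CT16 VIP vs. CT12 Veh, 2 genes rose that arrays of both groups detected (1.49% of all probes were called higher), Ccl2 by 2.64 (SE 0.41, adjusted p = 0.00659) and Lgals3 by 1.30 (SE 0.29, adjusted p = 0.0436). Ccl2 was detected on 1 of 4 CT12 Veh arrays and Lgals3 on 2 of 4. The cytokine Il1b was detected on 2 of 4 CT16 VIP arrays and on no CT12 Veh or CT10 array, so that it entered the tests through the group where it is high and is not counted. These genes are not particular to microglia, since astrocytes, endothelium and neurons can also express them, and their cells of origin cannot be read from bulk RNA. The median of the list in that comparison was 0.0903, beside -0.024 over all probes. Ccl2 was detected on all VIP arrays and on no CT10 array, and is likewise not counted against CT10. Of the others, 2 rose in CT12 VIP vs. CT10, where 2.26% of all probes were called higher, Ccl4 (by 1.86, SE 0.25, adjusted p = 0.00122) and the cholesterol hydroxylase Ch25h (by 1.24, SE 0.27, adjusted p = 0.0313). In CT16 VIP vs. CT10, where 1.66% were called higher, Lgals3 rose (by 1.15, SE 0.25, adjusted p = 0.0278), detected on 2 of 4 CT10 arrays. None of 12 passed between CT12 Veh and CT10, and 3 had an unadjusted p under 0.05, in either direction, beside 6.71% of all probes.

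The genes whose pattern over the 16 arrays was most like the mean of the 3 members detected everywhere (Tyrobp, Aif1 and C1qb, each scaled) were not microglial markers. Among 10612 other genes, the highest Pearson correlations were those of Gmcl1 (0.91), Iscu (0.88), 2310010J17Rik, Pgm1 and Rom1 (0.86 each) and Anapc13 (0.85). The nearest listed microglial or myeloid genes were Slco2b1 and Ly86 at 0.69 (positions 209 and 226) and Olfml3 at 0.68, which were named after their values were seen. These correlations are a description, over arrays that share their depth and normalisation.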

How the data were processed

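The labels give 16 slices in 4 groups of 4, hybridised on MouseWG-6 v2 arrays (Illumina). The authors deposited raw bead intensity values per probe without normalisation, with detection p-values. They also deposited log2 values made with lumi (version not given) by detection filtering, variance stabilisation and quantile normalisation, in 1 table for each of the first 2 comparisons of the report and in 1 for all arrays (global values). Those pairwise log2 values were used for the first 2 comparisons. The other 4 used neqc on the deposited intensities, keeping probes that at least 1 compared array detected (p of 0.01 or less). The variance-stabilised scale compresses differences near background. Probes were named through the platform table and RefSeq (16733 of 19893 named), and the brightest probe stood for a gene with several.

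Groups were compared with limma 3.58.1 in R 4.3.3, 2-sided, with Benjamini-Hochberg adjustment over all probes at 0.05. Correlations used 100000 permutations in Python 3.11.15 with numpy 2.4.6. The scripts were tested on simulated data. The text names all 8 members, up to 4 genes past the threshold from each other list, and the 6 genes most like the members. Members and lists were chosen with earlier results of these data known, so none is independent of them. Alternatives changed the normalisation (neqc, quantile without background correction, global values), the detection filter (stricter or none), the fit (all arrays at once, a replicate block, array weights, a covariate for detected probes), the summary (unadjusted p, averaged probes) and the arrays (few-probe arrays or each array left out). Precision is limited by the small number of arrays.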

Additional observations from a re-analysis of the deposited data

How the results depend on the processing

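Of 806 recomputed differences of single genes, 757 kept their direction and side of the threshold. In CT12 VIP vs. CT12 Veh the count of members called was 2 at an unadjusted p and 1 with detected probes as a covariate, and in CT16 VIP vs. CT12 VIP 1 at an unadjusted p. In CT16 VIP vs. CT12 Veh the count of 1 became 0 without a detection filter, with the replicate block, with the mean of a gene's probes and without the arrays with few detected probes, 3 in a fit of all arrays on global values and 5 at an unadjusted p, and 0 to 1 with an array left out. P2ry12 was then -1.35 without a filter (adjusted p = 0.133) and -1.35 with the block (adjusted p = 0.07). The count of 1 with an array left out came from the fit without CT16 VIP 1, which is not counted as support, as given above. For CT12 Veh vs. CT10 and CT12 VIP vs. CT10 the unadjusted counts were 1 and 2. For CT16 VIP vs. CT10 the count was 1 with the stricter filter, the fit of all arrays or the covariate, and 7 unadjusted. For any difference among the 4 groups it was 2 with log2 quantile values, array weights or the covariate, 5 unadjusted, 0 without the arrays with few detected probes and 0 to 3 with an array left out. The pairs correlated by Pearson r numbered 2 after group centring and 5 without those arrays. The cause of these shifts was not tested.

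The sign turned for 36 of these values, none of them called. In CT12 VIP vs. CT12 Veh, Csf1r, detected on 1 of the 8 arrays and so a difference of background signal, was 0.04 with neqc with or without a filter, 0.02 with log2 quantile values, 0 on global values, in the fit of all arrays and with array weights, 0.01 without the arrays with few detected probes and -0.04 to 0.04 with an array left out, and C1qb 0.02 with array weights, 0.07 without the few-probe arrays and -0.03 to 0.05 with an array left out. In CT16 VIP vs. CT12 VIP, Aif1 was 0.01 without the few-probe arrays. In CT16 VIP vs. CT12 Veh, Cx3cr1 was 0 on global values and in the fit of all arrays, 0.01 with array weights and -0.16 to 0.13 with an array left out, and Tyrobp 0 without the few-probe arrays and -0.02 to 0.16 with an array left out. In CT12 Veh vs. CT10, C1qa was 0.11 with the replicate block and -0.35 to 0.03 with an array left out, and Aif1 was -0.09 as the mean of its probes. With an array left out, P2ry12 ran from -0.53 to 0.04 in CT12 VIP vs. CT10, and C1qa from -0.11 to 0.19 and Tyrobp from -0.15 to 0.01 in CT16 VIP vs. CT10. Whether the replicate numbers pair the slices cannot be settled from these values. Of 21 correlations of same-numbered slices, 4 were over 0.1 (range -0.34 to 0.27), and 3 were the best of their slice. The highest, 0.27, was that of slice 1 in CT12 VIP vs. CT12 Veh. The block removed the P2ry12 call in CT16 VIP vs. CT12 Veh (limma, adjusted p = 0.07) and changed no other call.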

Other observations

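Among the other macrophages a slice could hold, 2 of 8 markers of border macrophages were measured. Ms4a7 was detected on 2 of 4 CT10 arrays and on no CT12 VIP array, and entered that comparison only through CT10, so its test is not counted. Siglech, a further microglial receptor named here after its values were seen, had a correlation of -0.56 with the mean of Tyrobp, Aif1 and C1qb over the 16 arrays, the lowest among the 24 listed microglial and myeloid genes that were measured, as against 0.69 for Slco2b1.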
